A study of Mus musculus with 6 samples.

Results

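The genes described here are 4 subunits of the phagocyte NADPH oxidase (Cybb, Cyba, Ncf1 and Ncf4) and 5 antioxidant enzymes (Sod2, Cat, Prdx5, Gpx1 and Txnrd1). They were chosen by symbol, and all 9 were found among the 32285 genes of the count tables. Single-cell RNA was measured in bone marrow enriched with beads for c-Kit, a surface receptor of blood progenitors, from BALB/c mice aged 10 weeks. Non-tumor-bearing mice (NTB) were compared with mice that carried 4T1, a mouse mammary tumor line, and received either DPBS as vehicle or brequinar (BRQ), an inhibitor of pyrimidine synthesis, at 10 mg/kg, each injected daily for 2 weeks. There were 3 mice per group in 3 pools, and each pool held 1 mouse of each group, told apart by the hashtag antibodies B0301 (NTB), B0302 (vehicle) and B0303 (BRQ). The mice were separate animals, so the p-values measure the spread between mice. Neutrophils carry little c-Kit, and those described here are the ones that passed the enrichment.

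The phagocyte NADPH oxidase moves electrons from NADPH across a membrane onto oxygen and so makes superoxide, the first step of the respiratory burst with which neutrophils and macrophages kill microbes. Cybb (gp91phox) and Cyba (p22phox) form its membrane-bound core, while Ncf1 (p47phox) and Ncf4 (p40phox) belong to the cytosolic part that joins the core on activation. Sod2 turns superoxide into hydrogen peroxide in mitochondria. Cat, Gpx1 and Prdx5 break down peroxides with a heme group, glutathione and thioredoxin, respectively, and Txnrd1 keeps thioredoxin reduced at the expense of NADPH.

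All 9 gene IDs were placed on GRCm38 by GENCODE M21, and the spans below are whole genes with exons, introns and untranslated regions. Cybb lies at chrX:9435252-9487771, Cyba at chr8:122424776-122432930 and Ncf1 at chr5:134220053-134229625, each on the minus strand, and Ncf4 at chr15:78244801-78262580 on the plus strand. Sod2 lies at chr17:13006846-13040063 and Gpx1 at chr9:108338903-108340343 on the plus strand, as does Txnrd1 at chr10:82833951-82897712. Cat at chr2:103453849-103485160 and Prdx5 at chr19:6906697-6910106 lie on the minus strand. The subunits are thus coded on different chromosomes.

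The pools held 11441 to 14297 barcodes and 100700982 to 135564079 unique molecular identifiers (UMIs, counted RNA molecules). After filters, 15966 cells could be given to 1 mouse, 382 to 2780 per mouse. Granulocyte-monocyte progenitors (GMPs) were the 3916 cells with Ms4a3, a marker of these progenitors, above a fixed level, whose scale in the study is not certain. They are a range on 1 gene and not a separate type, and 3733 cells lay within 0.25 natural-log units of that level. The other classes came from clusters and are written with -like, namely 3449 neutrophil-like, 1619 monocyte-like and 424 erythroid-like cells. Pairs of pools shared 38 to 48 barcodes, at most 0.376% of a pool. Counts were summed per mouse and class and scaled to CPM, the counts of a gene relative to the total of its sum, with TMM factors where the groups are compared and without them where the classes are, so that mice and not cells were the replicates. GMP sums held 998154 to 16074010 UMIs, neutrophil-like sums 270459 to 5229924 and monocyte-like sums 723521 to 6595189. The vehicle-treated mouse of pool 2 had 9 erythroid-like cells and was left out of that class.

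The oxidase genes differed widely in level between the classes. Cybb was lowest in HSC/MPP-like (stem and multipotent progenitor) cells, with 8.66, 14.3 and 31.8 CPM as the lowest, median and highest of 9 mice. It came to 65.9, 116 and 178 CPM in erythroid-like cells, 69.8, 130.1 and 205 CPM in monocyte-like cells and 212, 252 and 406 CPM in GMPs. Neutrophil-like cells held 930.4, 2168 and 2751 CPM. The ranges of erythroid-like and monocyte-like cells overlapped. RNA from other cells can add to such levels, and erythroid-like cells held neutrophil markers at 1.41 to 7.6% of their level in the neutrophil-like cells of the same mouse and Cybb at 2.88 to 14%. Monocyte-like cells held 0.483 to 0.908% of the neutrophil markers and 3.49 to 10.4% of Cybb. In erythroid-like cells the share of Cybb was the larger in each of 8 mice, from 3.72% against 3.69% in the NTB mouse of pool 3 to 14% against 6.52% in the vehicle-treated mouse of pool 3, and the part of neutrophil RNA in these levels was not tested. HSC/MPP-like cells, GMPs and neutrophil-like cells did not overlap in Cybb with their neighbours among these 5 classes. Macrophage-like cells, led by C1qa, spanned 238 to 980.5 CPM and overlapped with GMPs and with neutrophil-like cells.

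Cyba followed a like order, with medians of 103 CPM in HSC/MPP-like cells, 163 in erythroid-like cells, 287 in monocyte-like cells, 748 in GMPs and 1536 in neutrophil-like cells. For Ncf1 the same 5 medians were 36.1, 67.1, 150.0, 289.5 and 743 CPM. Ncf4 had 56.3, 55.4, 123, 216 and 536.5 CPM, with overlapping ranges in HSC/MPP-like and erythroid-like cells. Prdx5 came to 114, 215, 323, 883 and 2174 CPM. In Cyba, Ncf1, Ncf4 and Prdx5 the ranges of HSC/MPP-like and erythroid-like cells overlapped, while GMPs and neutrophil-like cells overlapped with no other of the 5 classes. Thus the antioxidant gene Prdx5 was ordered across the classes like the oxidase subunits.

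The other enzymes were ordered differently. Cat ran the opposite way, at 57.6 to 68.8 CPM in HSC/MPP-like cells, 26.3 to 39.5 in GMPs and 3.70 to 18.2 in neutrophil-like cells, where a sum held 1 to 88 Cat UMIs. It was highest in lymphoid progenitor-like cells (median 201 CPM, 6 mice) and macrophage-like cells (median 199.6 CPM, 7 mice), whose ranges overlapped. Gpx1, at 3066 to 4941 CPM, had its highest median of the 5 classes in GMPs (3473 CPM), and monocyte-like cells, at 2296 to 3613 CPM, had the next one and an overlapping range. Sod2 reached 97.8 to 124 CPM in erythroid-like cells and 21.2 to 38.4 CPM in neutrophil-like cells. Txnrd1 had its highest median of these 5 classes in HSC/MPP-like cells (104 CPM, range 68.4 to 116) and its lowest in neutrophil-like cells (51.2 CPM, range 39.4 to 66.2). No test was run on these differences between classes.

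**Figure D1:**
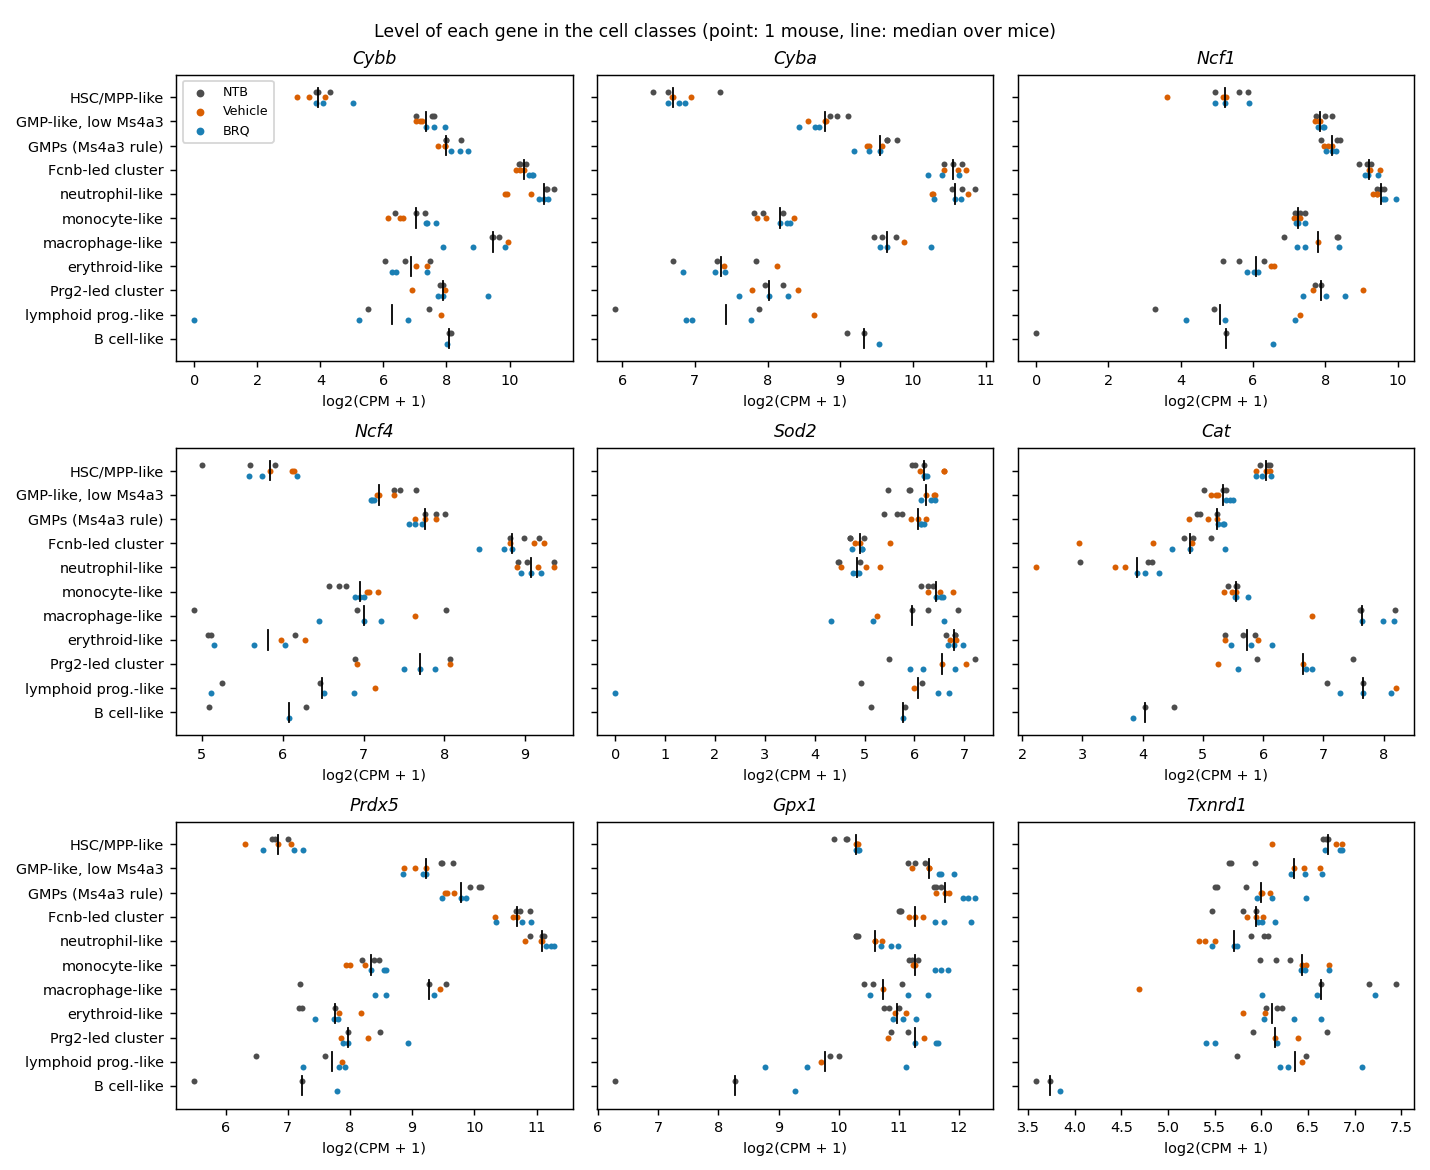
Level of each of the 9 genes by cell class, as log2(CPM + 1) on the horizontal axis, where a point is 1 mouse, its color the group and the vertical line the median over mice. The oxidase genes and Prdx5 rise from HSC/MPP-like cells through GMPs to neutrophil-like cells (Cybb medians 14.3, 252 and 2168 CPM), and Cat falls over the same classes (medians 65.0, 36.6 and 13.9 CPM).

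Over 107 sums of 14 classes and single mice, the genes most like each member by Pearson r of log2(CPM + 1) were sought among 6224 genes. These sums share mice, pools and depth, so r is a description. Cybb was most like Clec4a2 (r = 0.91), Vsir (0.898) and Cyba (0.893). Cyba was most like Cybb (0.893), Clec4a2 (0.884) and Prdx5 (0.869), and Ncf1 most like S100a11 (0.898), Prdx5 (0.883) and Arhgdib (0.877). For Ncf4 they were Prdx5 (0.92), S100a11 (0.911) and Rac2 (0.907), and for Prdx5 S100a11 (0.935), Ncf4 (0.92) and Wfdc21 (0.918). Gpx1 was most like Ifngr1 (0.854), Ms4a3 (0.841) and Gsr (0.824). The nearest genes of Cat were Clasp2 (0.784), Ptp4a2 (0.783) and Akr1a1 (0.781), those of Sod2 Dlat (0.783), Sec31a (0.776) and Isyna1 (0.755), and those of Txnrd1 Tpi1 (0.711), Vdac1 (0.699) and Pspc1 (0.698). Between Cat and Prdx5 r was -0.557.

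The promoters of the membrane subunits are shown because Cybb and Cyba were each other's near neighbours across classes, and a Txnrd1 start is shown because Txnrd1 is a textbook target of the antioxidant factor NRF2. Each line gives the 250 bases before a start site in RefSeq on GRCm38.p6, the patched form of the mm10 build, read 5′ to 3′ on the gene's strand. Capitals in the first and second line mark the letters AGATAA, the usual word of the GATA factors, on either strand, and in the last line TGACNNNGC (the core of the antioxidant response element) on either strand. The windows are chrX:9469325-9469574 (minus strand) for Cybb, chr8:122432941-122433190 (minus strand) for Cyba and chr10:82858956-82859205 (plus strand) for 1 of 3 Txnrd1 starts, and the Cybb and this Txnrd1 window lie within the longer gene spans given above.
Cybb: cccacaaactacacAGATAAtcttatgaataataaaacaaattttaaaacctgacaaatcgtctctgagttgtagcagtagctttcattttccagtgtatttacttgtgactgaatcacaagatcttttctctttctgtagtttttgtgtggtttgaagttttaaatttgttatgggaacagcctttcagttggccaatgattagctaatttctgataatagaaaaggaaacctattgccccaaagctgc
Cyba: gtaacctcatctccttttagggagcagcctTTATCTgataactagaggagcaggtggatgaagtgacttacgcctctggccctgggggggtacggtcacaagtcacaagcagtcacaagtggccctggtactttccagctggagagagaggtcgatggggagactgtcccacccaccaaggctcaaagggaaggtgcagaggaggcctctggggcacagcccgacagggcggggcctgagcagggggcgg
Txnrd1: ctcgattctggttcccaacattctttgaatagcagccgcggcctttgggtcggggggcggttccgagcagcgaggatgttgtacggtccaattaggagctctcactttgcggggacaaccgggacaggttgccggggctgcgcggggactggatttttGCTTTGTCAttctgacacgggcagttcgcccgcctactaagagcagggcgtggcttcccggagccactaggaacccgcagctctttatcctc
RefSeq windows were matched for 8 of the 9 genes, 10 windows in all, and not for Ncf4. AGATAA was in 2 of the 10, here shown, and in 10.0% of all 32851 windows of the same length. TGACNNNGC was in 1 of 10 and in 10.2% of all windows, and GAGGAA, a core word of ETS factors, was in 3 of 10 (Cat, Sod2 and another Txnrd1 start) and in 23.3% of all. No overlap between the 3 words was marked in the windows shown. A match is only a match of letters.

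In GMPs of vehicle-treated 4T1-bearing mice, Sod2 and Txnrd1 were higher and Prdx5 was lower than in NTB mice, while no oxidase subunit passed the edgeR test on sums per mouse (two-sided, Benjamini-Hochberg adjusted p under 0.05 over all genes tested). These 3 of 9 genes stood beside 11.3% of the 10331 genes tested in this comparison, with 6.63% higher and 4.68% lower. The median log2 fold change of the 9 genes was -0.08, beside -0.014 over all genes.

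Sod2 in NTB-GMPs came to 44.7, 50.8 and 52.5 CPM in pools 1, 2 and 3, and in Veh-GMPs to 80.6, 69.0 and 61.5 CPM. All Veh-GMP values lay above all NTB-GMP values, a log2 fold change of 0.51 ± 0.12 (SE, adjusted p = 0.00918). Txnrd1 rose from 49.0, 45.8 and 55.8 CPM to 68.1, 65.8 and 69.5 CPM without overlap (0.42 ± 0.13, adjusted p = 0.0355). Prdx5, a thioredoxin-dependent peroxidase, fell from 1202, 1119 and 969 CPM to 876, 788.5 and 757 CPM, again without overlap (-0.44 ± 0.12, adjusted p = 0.0161). These 3 were also the only genes of the 9 whose groups did not overlap, against 28.4% of all genes tested.

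Among the oxidase genes, Cybb in GMPs was 272.5, 260.3 and 348 CPM in NTB mice and 264, 221 and 252 CPM in vehicle-treated mice, with overlapping groups. Its log2 fold change was -0.26 (adjusted p = 0.158), and with the pool as a block, which compares mice of the same pool, it was -0.27 (adjusted p = 0.0109). Cyba was 960.4, 824 and 799 CPM against 824, 701 and 681 CPM (log2 fold change -0.22, adjusted p = 0.227), and it too passed with the block (-0.23, adjusted p = 0.0192). Blocked by pool, 5 of 9 genes thus passed, beside 16.4% of all genes. Ncf1, Ncf4, Cat and Gpx1 had log2 fold changes of -0.13, -0.08, -0.04 and 0.12 and did not pass in either fit.

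The summed level of 14 neutrophil markers, all 14 detected, was 46340 to 49780 CPM in NTB-GMPs and 33650 to 37390 CPM in Veh-GMPs. Of 13 marker lists, 8 were lower in Veh-GMPs without overlap, namely those of neutrophils, monocytes, macrophages, basophil, mast and eosinophil cells, lymphoid progenitors, dendritic, T and NK, and stromal and endothelial cells, and 0 were higher. Of the T and NK markers Cd3e, Cd3g, Trbc2, Gzma and Il2rb were at 0 in both groups. Nkg7 of that list and Vcam1 of the macrophage list were among the leading genes of the Elane- and Fcnb-led GMP cluster. In both groups Siglech, Ccr9 and Xcr1 (dendritic) and Lepr and Col1a1 (stromal and endothelial) were at 0. In NTB-GMPs so were Cxcl12, Col1a2, Cdh5, Kdr, Ly6d, Cpa3, Fcer1a, Il7r and Rag1. Of the NTB-GMPs, 55.4 to 59.1% came from the cluster led by Elane and Fcnb, against 36.8 to 41.2% of Veh-GMPs. With 58 GMPs drawn per mouse, 23 from the Ctsg-led and 35 from the Elane- and Fcnb-led cluster, which were the only clusters with at least 10 GMPs in every mouse, Sod2 had a log2 fold change of 0.08 (adjusted p = 0.891), Prdx5 -0.23 (0.24) and Txnrd1 0.60 (0.0758), and no member was called, where 3.62% of all genes were. The median UMI count per GMP was 10828.5 to 11581 in NTB mice and 14737 to 17966 in vehicle-treated mice. The part of cluster makeup and depth in the differences was otherwise not tested.

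Relative to vehicle, 2 of the 4 oxidase subunits passed in BRQ-GMPs, Cybb being higher and Ncf4 lower. Cyba, Ncf1 and the antioxidant genes did not pass. That is 2 of 9 genes, where 13.4% of all genes were called (6.08% higher and 7.37% lower), and the median log2 fold change was -0.05 beside 0.001 over all genes.

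Cybb came to 330.4, 268 and 352 CPM in BRQ-GMPs and to 264, 221 and 252 CPM in Veh-GMPs, without overlap. This was 1.28-fold higher (log2 fold change 0.36 ± 0.11, adjusted p = 0.0284). Ncf4 was 189.7, 199 and 162.5 CPM in BRQ-GMPs, below all values of Veh-GMPs (256, 206 and 222 CPM), with a log2 fold change of -0.33 ± 0.10 (adjusted p = 0.0289). Gpx1 was the remaining gene with no overlap, at 4322, 4072 and 4288 CPM against 3379, 3617 and 3739 CPM (0.24 ± 0.09, adjusted p = 0.0805). Non-overlap in 3 of 9 genes compares with 30.7% of all genes. With the pool as a block, Gpx1 (0.24, adjusted p = 0.00889) and Cyba (-0.26, adjusted p = 0.00377) also passed, 4 of 9 in all, beside 20.4% of all genes.

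Summed monocyte markers (10 of 10 detected) were 218 to 331 CPM in Veh-GMPs and 381 to 475 CPM in BRQ-GMPs, where Cybb was higher too, and 480.6 to 575 CPM in NTB-GMPs. Other marker sums were also higher in BRQ-GMPs than in Veh-GMPs without overlap, namely those of HSC/MPP (67.0 to 84.5 against 42.7 to 46.9 CPM), basophil, mast and eosinophil (185 to 202 against 85.5 to 113 CPM), dendritic (774 to 891 against 598 to 632 CPM), lymphoid progenitor (5.15 to 6.98 against 2.45 to 4.82 CPM) and stromal and endothelial cells (134 to 150.5 against 57.7 to 73.3 CPM). Of the dendritic markers Siglech, Ccr9 and Xcr1 were at 0 in Veh-GMPs and Ly6d in BRQ-GMPs, and of the stromal and endothelial markers Lepr and Col1a1 in Veh-GMPs and Cdh5 in BRQ-GMPs. Their part in the Cybb difference was not tested. When GMPs were taken as whole GMP-like clusters in place of the Ms4a3 limit, Cybb had a log2 fold change of 0.28 (adjusted p = 0.106). In the draw of 58 GMPs per mouse, Ncf4 had -0.22 (adjusted p = 0.393).

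Against NTB-GMPs, BRQ-GMPs had lower Cyba, Ncf4 and Prdx5 and higher Gpx1. These 4 of 9 genes stood beside 6.01% of all genes called, 2.56% higher and 3.46% lower. The median log2 fold change over the 9 was 0.09, beside -0.003 over all genes.

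Cyba was 714, 636 and 507 CPM in BRQ-GMPs, below 960.4, 824 and 799 CPM in NTB-GMPs (log2 fold change -0.47 ± 0.11, adjusted p = 0.0131). Ncf4 had 189.7, 199 and 162.5 CPM against 279, 245 and 215 CPM (-0.41 ± 0.11, adjusted p = 0.0225). For Prdx5, BRQ-GMPs held 890.5, 836 and 618 CPM and NTB-GMPs 1202, 1119 and 969 CPM (-0.49 ± 0.12, adjusted p = 0.0128). In each case the BRQ mouse of pool 3 was lowest, and none of the 3 genes overlapped between the groups.

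Gpx1 came to 4322, 4072 and 4288 CPM against 3401, 3165 and 3313 CPM, 1.28-fold higher (0.36 ± 0.09, adjusted p = 0.0179). Txnrd1 (65.3, 57.8 and 76.7 CPM against 49.0, 45.8 and 55.8) and Sod2 (65.7, 65.1 and 62.3 CPM against 44.7, 50.8 and 52.5) were also free of overlap, which makes 6 of 9 genes against 25.9% of all genes. Their log2 fold changes were 0.40 (adjusted p = 0.0612) and 0.36 (adjusted p = 0.0806), and with the pool as a block 0.40 (adjusted p = 0.00898) and 0.34 (adjusted p = 0.0388). Ncf1 passed only with the block (-0.23, adjusted p = 0.046), which brought the count to 7 of 9, beside 11.8% of all genes.

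The neutrophil markers summed to 26290 to 37710 CPM in BRQ-GMPs. Against NTB-GMPs, 3 of 13 marker lists were lower without overlap (neutrophils, monocytes and macrophages) and 3 higher (HSC/MPP, basophil, mast and eosinophil, and stromal and endothelial cells), and their part in the differences was not tested. In NTB-GMPs Cxcl12, Lepr, Col1a1, Col1a2, Cdh5 and Kdr (stromal and endothelial), Procr (HSC/MPP) and Cpa3 and Fcer1a were at 0. In BRQ-GMPs Cdh5 was at 0. The GMP sums held 998154 to 2068775 UMIs in NTB mice and 8740675 to 10897205 UMIs in BRQ-treated mice. Further, the BRQ mouse of pool 3 had 8.9% of its GMPs in the Elane- and Fcnb-led cluster, against 36.1% and 39.8% in the other BRQ mice. In the draw of 58 GMPs per mouse, Cyba, Ncf4 and Prdx5 had log2 fold changes of -0.03, -0.12 and -0.08 (adjusted p = 0.959, 0.781 and 0.828), Cybb had 0.74 (adjusted p = 0.00706) and Gpx1 stayed called, 2 of 9 genes in all, beside 2.28% of all genes.

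**Figure D2:**
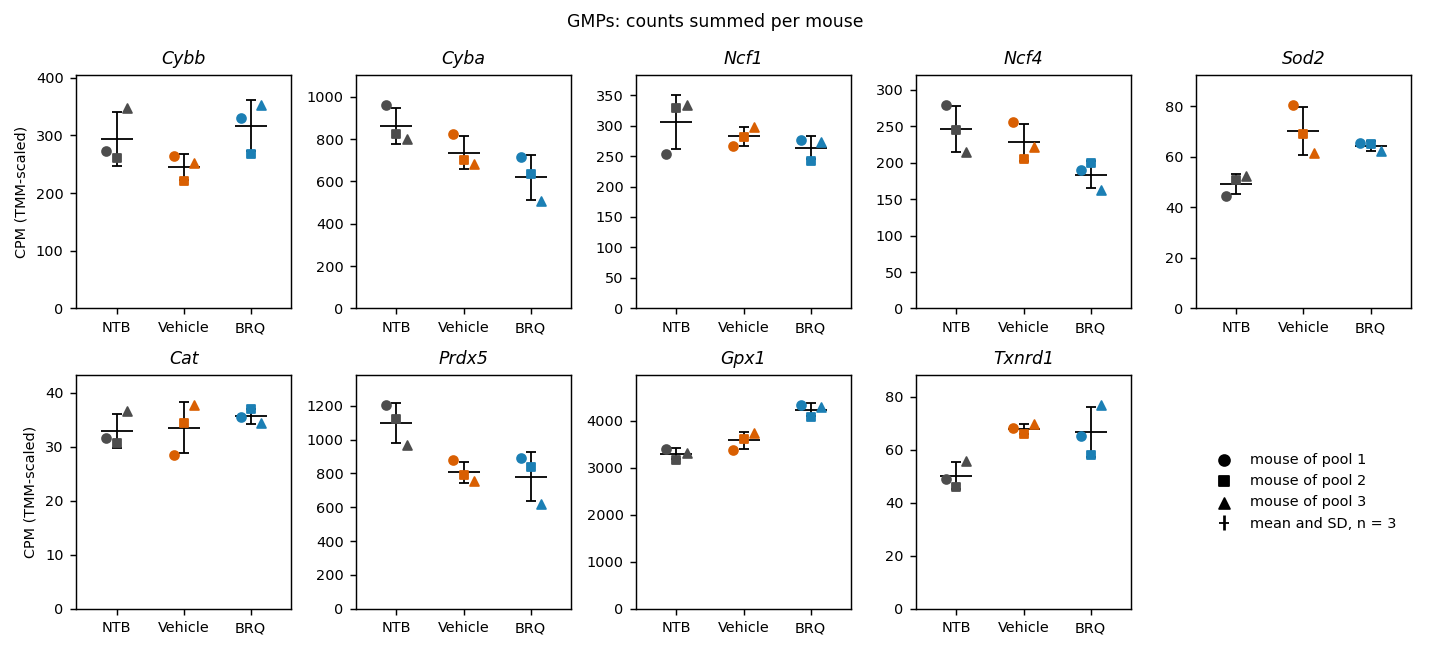
TMM-scaled CPM of the 9 genes in the GMPs of each mouse, where a symbol is 1 mouse and its shape the pool, and the lines are the group mean and SD (n = 3). Sod2 and Txnrd1 lie higher in both tumor-bearing groups than in NTB mice, Prdx5 lies lower, and Gpx1 is highest in the BRQ mice (4072 to 4322 CPM).

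Each GMP call was lost with at least 1 mouse left out (a mouse is given by its group and pool number). Sod2 in vehicle against NTB lost its call when vehicle 1 was left out (log2 fold change 0.36, adjusted p = 0.103). Txnrd1 lost it when any 1 of the 6 mice was left out (adjusted p = 0.0537 to 0.172), and Prdx5 with NTB 1, NTB 2, vehicle 2 or vehicle 3 left out (0.0721 to 0.0772). In BRQ against vehicle, Cybb lost it with vehicle 2, vehicle 3 or BRQ 1 left out (0.0685 to 0.149), and Ncf4 with vehicle 1, vehicle 3, BRQ 1 or BRQ 3 left out (0.0512 to 0.25). By DESeq2, Txnrd1 in vehicle against NTB had 0.42 (adjusted p = 0.0579) and Ncf4 in BRQ against vehicle -0.32 (adjusted p = 0.0607). In BRQ against NTB, it was lost with NTB 1 or NTB 2 left out for Cyba (0.0562 to 0.0838) and Prdx5 (0.0743 to 0.0812). Ncf4 lost it with NTB 1, NTB 2 or BRQ 3 left out (0.0692 to 0.122), and Gpx1 with NTB 2, NTB 3 or BRQ 1 left out (0.0556 to 0.112). Without the block, another 2 values were called with a mouse left out, Cyba in BRQ against vehicle (BRQ 1, -0.37, adjusted p = 0.0468) and Txnrd1 in BRQ against NTB (BRQ 2, 0.48, adjusted p = 0.0157). No called value changed sign.

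The way cells were given to mice and classes also mattered. With hashtags called by the ratio of the 2 highest tags, 1292 GMPs remained, 21 to 681 per mouse. Sod2 and Prdx5 against NTB in Veh-GMPs and Prdx5 in BRQ-GMPs stayed called, and the other 6 GMP values did not (adjusted p = 0.0554 to 0.624). As whole clusters, Prdx5 of Veh-GMPs against NTB-GMPs had -0.28 (adjusted p = 0.102) and Cyba of BRQ-GMPs against NTB-GMPs -0.31 (adjusted p = 0.0963).

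Neutrophil-like cells were made of 3 clusters that the groups filled unequally, and the comparisons of this class have to be read with that makeup. The cluster led by Chil3, Camp and Ltf, genes of secondary granules in immature neutrophils, held 68.5 to 75.9% of the class in NTB mice, 5.1 to 20.5% in vehicle-treated mice and 6.0 to 30.8% in BRQ-treated mice. The cluster with Il1b, Cxcr2 and Retnlg, genes of late neutrophils, held 6.1 to 10.3%, 71.5 to 90.3% and 52.3 to 81.4%. The third, led by Ly6g and Mmp8, held the rest. Median UMI counts per neutrophil-like cell were 5449 to 6364, 1560.5 to 1898 and 2571.5 to 3407.5 in the 3 groups.

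Over the whole class, Cybb and Txnrd1 were lower in vehicle-treated than in NTB mice. Cybb was 2621, 2419 and 2719 CPM in NTB mice and 1708, 920.3 and 889.5 CPM in vehicle-treated mice, 2.20-fold lower without overlap (log2 fold change -1.14 ± 0.24, adjusted p = 0.00389). Txnrd1 was 74.2, 61.6 and 63.7 CPM against 42.98, 41.8 and 37.7 CPM (-0.68 ± 0.18, adjusted p = 0.0144). Summed monocyte markers (10 of 10 detected) in neutrophil-like cells were 10190 to 10340 CPM in NTB, 4565 to 7741 CPM in vehicle-treated and 7031 to 10120 CPM in BRQ-treated mice, and neutrophil markers (14 of 14) 392700 to 424400, 264900 to 341900 and 255000 to 339200 CPM. Of 13 marker lists, 3 were lower in vehicle-treated than in NTB mice without overlap, with macrophage markers (7.40 to 48.1 against 54.3 to 79.8 CPM) as the third. Another 3 were higher, those of basophil, mast and eosinophil cells (293.5 to 499 against 141 to 176 CPM, Fcer1a at 0 in both groups), dendritic cells (599.8 to 809.7 against 381 to 452 CPM, Siglech, Xcr1 and Ly6d at 0 in both) and lymphoid progenitors (6.73 to 8.65 against 2.49 to 3.40 CPM, Rag1 at 0 in NTB and Il7r in vehicle-treated mice). Their part in the differences was not tested. The 2 called genes of 9 stood beside 26.9% of 7869 genes (15.4% higher and 11.5% lower), and the 4 that did not overlap (Cybb, Txnrd1, Ncf1 and Gpx1) beside 46.2%. The median of the 9 was -0.23, beside -0.064 over all genes.

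BRQ-treated mice lay between the other groups for Cybb in this class, at 2397, 2223 and 1872 CPM. All 3 values were above those of vehicle-treated mice (0.88 ± 0.24, unadjusted p = 0.00253, adjusted p = 0.212) and below those of NTB mice (-0.26 ± 0.24, adjusted p = 0.499). With the pool as a block, the difference from vehicle was 0.92 (adjusted p = 0.0351), where 0.712% of all genes were called. No member was called by edgeR or DESeq2 in BRQ against vehicle, where edgeR called 0.0381% of all genes, and 2 (Cybb and Ncf1) had an unadjusted p under 0.05, beside 12.3% of all genes. Ncf1 had 811, 785 and 949.5 CPM against 721, 607 and 653 CPM (0.36 ± 0.16, adjusted p = 0.398). The 5 genes without overlap here (Cybb, Ncf1, Cat, Gpx1 and Txnrd1) compare with 13.9% of all genes, and the median of the 9 was 0.24, beside 0.002 over all genes. Among the marker lists, only that of T and NK cells was higher than in vehicle-treated mice without overlap (233.3 to 286.3 against 119.2 to 190.5 CPM). Its markers Cd3e, Trbc2, Klrb1c, Gzma and Il2rb were at 0 in both groups.

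In BRQ against NTB, no member was called by edgeR, with 13.5% of all genes called (10.6% higher and 2.94% lower), 2 members (Gpx1 and Txnrd1) at an unadjusted p under 0.05 (29.4% of all genes) and 1 called by DESeq2 (Gpx1), which called 11.3% of all genes. Gpx1 was 1400, 1327 and 1264 CPM in NTB mice, 1628, 1468 and 1612 CPM in vehicle-treated mice and 1878, 1700 and 1925 CPM in BRQ-treated mice, with no overlap between any groups. BRQ against NTB gave 0.46 ± 0.16 (adjusted p = 0.0663), and 0.46 (adjusted p = 0.0253) with the pool as a block. Non-overlap in 3 of 9 genes (Cybb, Gpx1 and Txnrd1) compares with 38.5% of all genes, and the median of the 9 was 0.02, beside -0.038 over all genes. Of 13 marker lists, 4 were higher than in NTB mice without overlap (GMP, basophil, mast and eosinophil, dendritic, and stromal and endothelial). Another 3 were lower (neutrophil, monocyte and macrophage). Fcer1a, Siglech, Xcr1, Ly6d, Col1a1 and Cdh5 of these lists were at 0 in both groups. The part of these markers in the differences was not tested.

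Sod2, Cat, Cyba, Ncf4 and Prdx5 were not called in any comparison of neutrophil-like cells. Cyba ranged from 1168 to 2081 CPM over the 9 mice, Ncf4 from 450 to 732 CPM and Prdx5 from 1724 to 2526 CPM. Sod2 rested on 6 to 111 UMIs per mouse, which limits what could be detected. With vehicle 1 left out, Cyba was called in vehicle against NTB (-0.60, adjusted p = 0.0345), Cybb in BRQ against vehicle (1.28, adjusted p = 0.00558) and Gpx1 in BRQ against NTB (0.47, adjusted p = 0.0423). Cybb in BRQ against vehicle was also called with BRQ 3 left out (0.98, adjusted p = 0.0172). Txnrd1 lost its call with vehicle 3 left out (-0.61, adjusted p = 0.0906) and by DESeq2 (-0.66, adjusted p = 0.0512). By tag ratios, with 11 to 194 neutrophil-like cells per mouse, Cybb had -0.47 (adjusted p = 0.187) and Txnrd1 -0.45 (adjusted p = 0.432).

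Within single clusters Cybb showed 2 different pictures. These clusters were picked after their values were seen, so their values are given without a test, and the 9 genes were not among those used for clustering. In the Il1b- and Cxcr2-led cluster, Cybb was 817 and 1179 CPM in the 2 NTB mice with at least 10 cells, 245, 183 and 209 CPM in vehicle-treated mice and 709.9, 746 and 763 CPM in BRQ-treated mice. The groups did not overlap, and the log2 fold change was -2.24 ± 0.19 for vehicle against NTB and 1.77 ± 0.15 for BRQ against vehicle. The NTB values rested on 50 and 116 Cybb UMIs in 37 and 51 cells. Vehicle-treated mice held 119, 34 and 155 Cybb UMIs. The part of RNA from other cells in these values was not tested. Ncf1 in the same cluster was 931 and 1006, then 611, 521 and 539.6, then 1030, 946 and 916 CPM, with changes of -0.80 ± 0.17 and 0.78 ± 0.13, so that vehicle-treated mice alone were low in this cluster. Cyba, Ncf4, Prdx5 and Gpx1 in this cluster differed by -0.06 to 0.11 between BRQ and vehicle.

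In the Camp- and Ltf-led cluster, by contrast, Cybb was 2502, 2266 and 2496 CPM in NTB mice, 2416, 2860 and 2526 CPM in vehicle-treated mice and 2776, 2561 and 2782 CPM in BRQ-treated mice. The NTB and vehicle values overlapped, and the log2 fold change was 0.09 ± 0.14, opposite in sign to that of the whole class. Ncf1 here was 704, 692 and 675 CPM in NTB, 744, 859 and 905 CPM in vehicle-treated and 663, 600 and 837 CPM in BRQ-treated mice. Its changes were 0.25 ± 0.15 for vehicle against NTB and -0.26 ± 0.15 for BRQ against vehicle, opposite in sign to those given for Ncf1 above. Gpx1 in this cluster was 1388, 1331 and 1234 CPM in NTB, 1787, 1381 and 1396 CPM in vehicle-treated and 1959, 1876 and 2253 CPM in BRQ-treated mice, so all BRQ values were the highest (0.62 ± 0.14 against NTB and 0.38 ± 0.14 against vehicle). With 11 cells per mouse drawn from this cluster, the alternative with equal cells, the Cybb change from NTB to vehicle was -0.03. Txnrd1, the other gene called over the whole class, changed from NTB to vehicle by -0.25 ± 0.22 in this cluster. In the Il1b- and Cxcr2-led cluster it changed by -0.38 ± 0.64, and the groups overlapped in both.

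**Figure D3:**
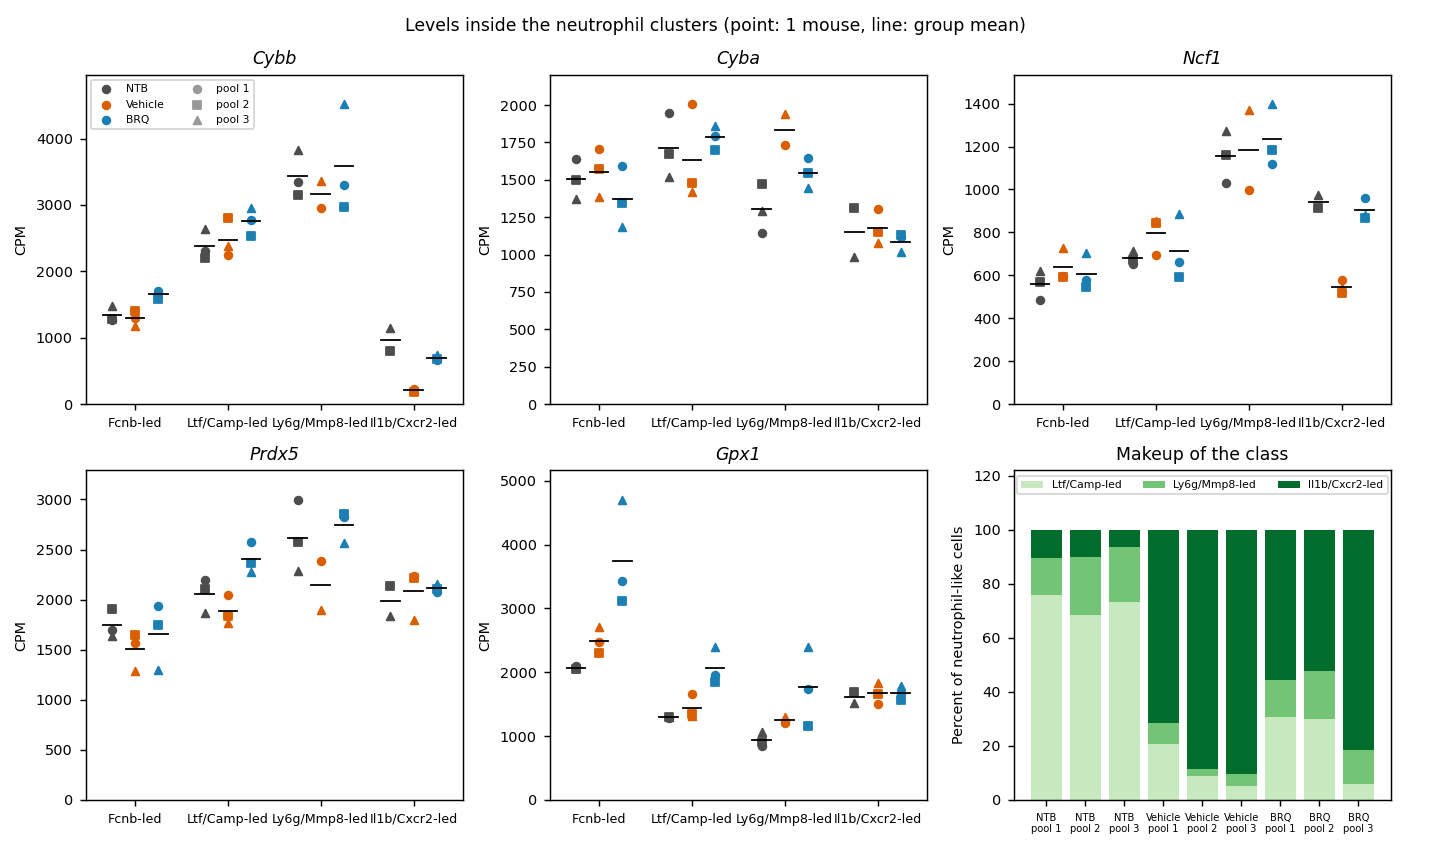
Level of 5 genes in 4 clusters, as CPM without TMM scaling, where a point is 1 mouse with at least 10 cells, its shape the pool and the line the group mean, and (last panel) the percent of each mouse's neutrophil-like cells in 3 of them. Cybb is low in vehicle-treated mice in the Il1b- and Cxcr2-led cluster, which makes up 71.5 to 90.3% of their neutrophil-like cells and 6.1 to 10.3% of those of NTB mice.

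The Fcnb- and Camp-led cluster, which stayed unnamed because its leading genes held more markers of neutrophils than of GMPs, the class it scored highest for, had Cybb at 1170 to 1703 CPM and Gpx1 at 2056 to 4692 CPM. Its Cybb range lay within that of neutrophil-like cells. Cybb medians over mice then were 1405 CPM in this cluster, 2532 CPM in the Camp- and Ltf-led cluster, 3318 CPM in the Ly6g- and Mmp8-led cluster and 673 CPM in the Il1b- and Cxcr2-led cluster. The ranges of the second and the third of these touched at 2950 and 2953 CPM without overlap. Ncf1 was highest in the Ly6g- and Mmp8-led cluster too (999 to 1396 CPM), above the Camp- and Ltf-led cluster (593 to 887.5 CPM).

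In monocyte-like cells Cybb and Gpx1 were higher in BRQ-treated than in vehicle-treated mice. Cybb was 103, 72.7 and 90.0 CPM in vehicle-treated mice and 162, 160.2 and 187.5 CPM in BRQ-treated mice, 1.83-fold higher without overlap (log2 fold change 0.87 ± 0.12, adjusted p = 2.961e-05). Gpx1 was 3221, 3041 and 3312 CPM in BRQ-treated mice against 2541, 2508 and 2449 CPM (0.35 ± 0.09, adjusted p = 0.0133). These 2 of 9 genes stood beside 5.42% of 9441 genes called (2.54% higher and 2.88% lower), and 3 of 9 without overlap (with Ncf4) beside 23.8%. The median of the 9 was 0.03, beside 0.008 over all genes.

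Between vehicle-treated and NTB mice, Cybb was lower and Ncf4 was higher in monocyte-like cells, 2 of 9 genes against 3.45% of all genes called (2.05% higher and 1.4% lower). Cybb in NTB mice was 86.5, 135 and 158 CPM, so the groups overlapped through the NTB mouse of pool 1 (-0.51 ± 0.14, adjusted p = 0.0365). Ncf4 was 108.4, 97.7 and 109 CPM in NTB mice and 151, 137 and 132 CPM in vehicle-treated mice, without overlap (0.43 ± 0.11, adjusted p = 0.0195). Txnrd1 was the other gene without overlap, at 65.9, 81.1 and 70.4 CPM against 90.0, 109.1 and 88.0 CPM (0.33, adjusted p = 0.137), and 2 of 9 such genes compare with 20.2% of all. The median of the 9 was 0.007, beside -0.016 over all genes.

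Against NTB mice, monocyte-like cells of BRQ-treated mice had higher Gpx1 (2434, 2472 and 2556 CPM in NTB; 0.36 ± 0.09, adjusted p = 0.0158), the only one of 9 genes called, where 3.27% of all genes were (1.51% higher and 1.76% lower). Cybb, above all NTB values at 162, 160.2 and 187.5 CPM, had a log2 fold change of 0.36 (adjusted p = 0.128), or 0.36 (adjusted p = 0.0483) with the pool as a block. Ncf4 at 120.1, 115.5 and 117 CPM lay between the NTB and vehicle values, and the 4 genes without overlap (Cybb, Gpx1, Ncf4 and Txnrd1) compare with 19.5% of all genes. The median of the 9 was 0.16, beside -0.007 over all genes. Without overlap, HSC/MPP, T and NK, and basophil, mast and eosinophil markers (77.1 to 90.7 against 50.9 to 66.3 CPM) were higher than in NTB mice. B cell markers were lower (205.5 to 216.8 against 218.4 to 331.7 CPM). Fcer1a, Ms4a2, Cd79a and Pax5 of these lists were at 0 in NTB mice, and Ms4a1, Cd3e, Trbc2, Gzma and Il2rb in both groups. The part of these markers in the differences was not tested.

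Prdx5 in monocyte-like cells passed with the pool as a block and not without it when all mice were kept. It was 353, 366 and 292 CPM in NTB mice, 316, 266 and 243 CPM in vehicle-treated mice and 370.2, 366 and 296.5 CPM in BRQ-treated mice, and in each pool the vehicle mouse was lowest. Blocked changes were -0.28 for vehicle against NTB (adjusted p = 0.038) and 0.30 for BRQ against vehicle (adjusted p = 0.00622), beside unblocked adjusted p of 0.184 and 0.0866. Cyba (223 to 344.5 CPM), Ncf1 (142 to 173 CPM), Sod2 (69.1 to 113 CPM) and Cat (41.4 to 48.4 CPM) were called in no comparison of this class.

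**Figure D4:**
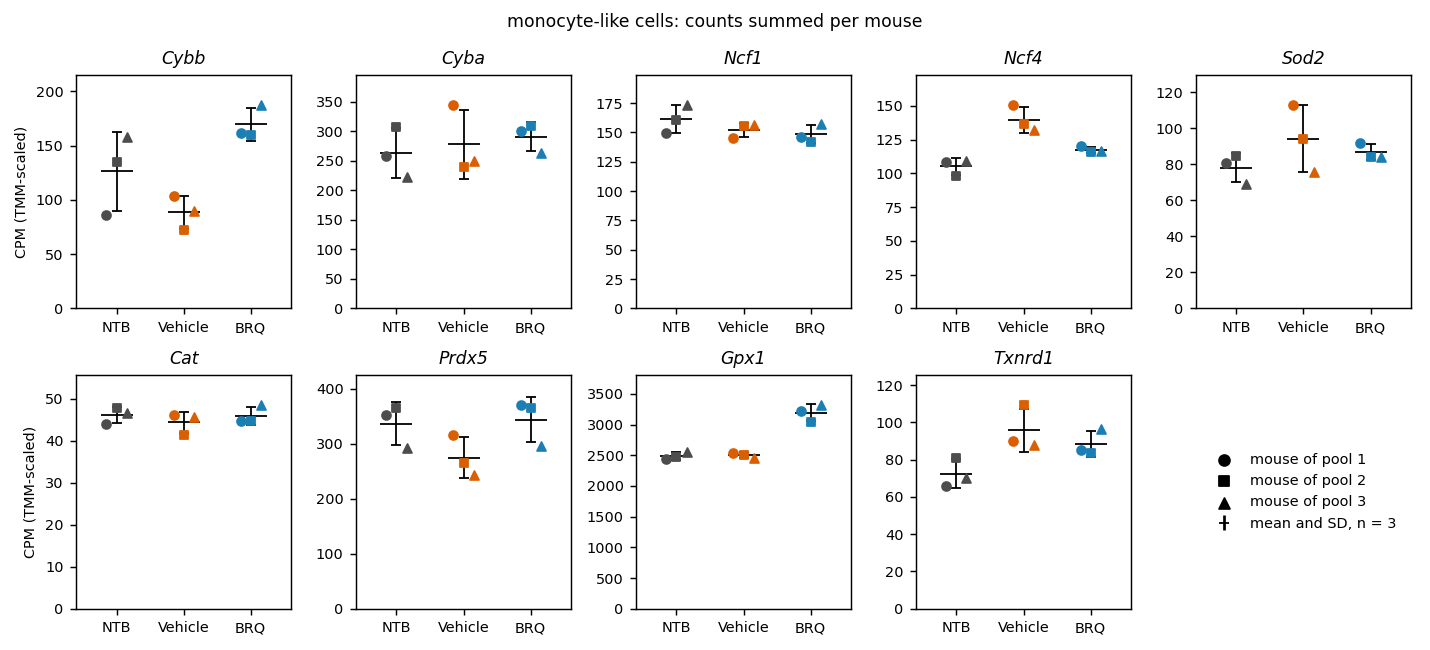
TMM-scaled CPM of the 9 genes in the monocyte-like cells of each mouse, where a symbol is 1 mouse and its shape the pool, and the lines are the group mean and SD (n = 3). Cybb is lowest in vehicle-treated mice (72.7 to 103 CPM) and highest in BRQ-treated mice (160.2 to 187.5 CPM), and Gpx1 is high in BRQ-treated mice alone.

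The Cybb call of BRQ against vehicle in monocyte-like cells stayed whichever mouse was left out. In vehicle against NTB, Cybb lost its call with NTB 2, NTB 3, vehicle 2 or vehicle 3 left out (adjusted p = 0.0953 to 0.373) and without cells marked as doublets (-0.41, adjusted p = 0.114). Ncf4 lost its call with NTB 2, NTB 3 or vehicle 1 left out (0.0597 to 0.147). Gpx1 lost it in BRQ against vehicle with vehicle 2, vehicle 3 or BRQ 1 left out (0.063 to 0.0738), and in BRQ against NTB with NTB 1, NTB 2 or BRQ 1 left out (0.063 to 0.107). Calls appeared for Cybb in BRQ against NTB with NTB 3 left out (0.54, adjusted p = 0.0345), for Sod2 in vehicle against NTB with vehicle 3 left out (0.49, adjusted p = 0.0354) and for Prdx5 in BRQ against vehicle with vehicle 1 (0.45, adjusted p = 0.036) or BRQ 3 (0.40, adjusted p = 0.0277) left out. By tag ratios, with 10 to 220 monocyte-like cells per mouse, no value was called, and Cybb in BRQ against vehicle had 0.70 (adjusted p = 0.207). With 38 cells per mouse, it stayed called.

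Neutrophil markers in monocyte-like cells (14 of 14 detected) summed to 2000 to 3248 CPM in NTB, 1653 to 1968 CPM in vehicle-treated and 1981 to 2415 CPM in BRQ-treated mice, and monocyte markers to 2305 to 3241, 2081 to 2633 and 2706 to 3012 CPM. Both sums were lowest in vehicle-treated mice by their medians, as Cybb was, and 6 of 13 marker lists were higher in BRQ-treated than in vehicle-treated mice without overlap. The other 4 were those of macrophages (11.3 to 16.1 against 8.34 to 11.2 CPM), HSC/MPP (239 to 246 against 165 to 190.2 CPM), dendritic cells (1097 to 1260 against 915 to 1019 CPM, Ly6d at 0 in both groups and Ccr9 and Xcr1 in vehicle-treated mice) and T and NK cells (223 to 248 against 127 to 184 CPM, Cd3e, Trbc2, Gzma and Il2rb at 0 in both). In NTB mice macrophage markers summed to 13.8 to 37.3 CPM, HSC/MPP markers to 193.5 to 232 CPM and dendritic markers to 1070 to 1192 CPM, also above all vehicle-treated mice. The median UMI count per monocyte-like cell was 13669.5 to 16807 in NTB, 20509 to 23732 in vehicle-treated and 15184 to 18709 in BRQ-treated mice, so that the vehicle-treated mice stood apart. The part of markers and depth in the Cybb difference was not tested.

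In erythroid-like cells none of the 9 genes was called in any comparison by edgeR or DESeq2. Without the filter on low counts, edgeR called 4 members in vehicle against NTB, beside 0.531% of all genes, and 1 in BRQ against vehicle, beside 0.126%. Under the other class rule it called 1 in vehicle against NTB, beside 0.26%. With the filter, called genes were 0.0124% of 8084 genes in vehicle against NTB, 0% in BRQ against vehicle and 0.0619% in BRQ against NTB, and 4, 5 and 0 members had an unadjusted p under 0.05, beside 6.75%, 5.23% and 7.16% of all genes. The medians of the 9 were 0.58, -0.49 and 0.11, beside -0.008, 0.001 and -0.005 over all genes. Ncf1 was 83.9, 36.1 and 46.3 CPM in NTB mice, 102 and 90.8 CPM in the 2 vehicle-treated mice and 64.5, 55.4 and 65.5 CPM in BRQ-treated mice. Vehicle values were the highest, without overlap (0.99 ± 0.24, unadjusted p = 0.000399, adjusted p = 0.182). Prdx5 had 233, 149 and 144 CPM, then 313 and 230.0 CPM, then 169 to 223 CPM (0.75 ± 0.19 for vehicle against NTB, adjusted p = 0.233).

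All 14 neutrophil markers were detected in the erythroid-like cells of every group. They summed to 21250, 5737 and 14490 CPM in the NTB mice, 25980 and 17270 CPM in the vehicle-treated mice of pools 1 and 3 and 10840, 8960 and 11210 CPM in BRQ-treated mice. Cybb was likewise highest in the pool 1 mice among NTB (192, 68.2 and 99.3 CPM) and vehicle-treated mice (177.5 and 133 CPM), and it was 83.8, 74.8 and 156 CPM in BRQ-treated mice (-0.65 ± 0.29 for BRQ against vehicle, unadjusted p = 0.038, adjusted p = 0.919). The part of neutrophil RNA in these values was not tested. Scrublet marked 14.4% and 8.2% of the 2 erythroid clusters as doublets, and with NTB 1 left out Ncf1, Cyba, Ncf4 and Prdx5 were called in vehicle against NTB (1.19, 0.89, 1.22 and 0.94, with adjusted p = 0.00542, 0.0476, 0.0206 and 0.0074), beside 0.628% of all genes. Groups of 2 of 9 genes in vehicle against NTB and 4 of 9 in BRQ against vehicle did not overlap, beside 19.7% and 23.3% of all genes, and none in BRQ against NTB, beside 12.5%.

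**Figure D5:**
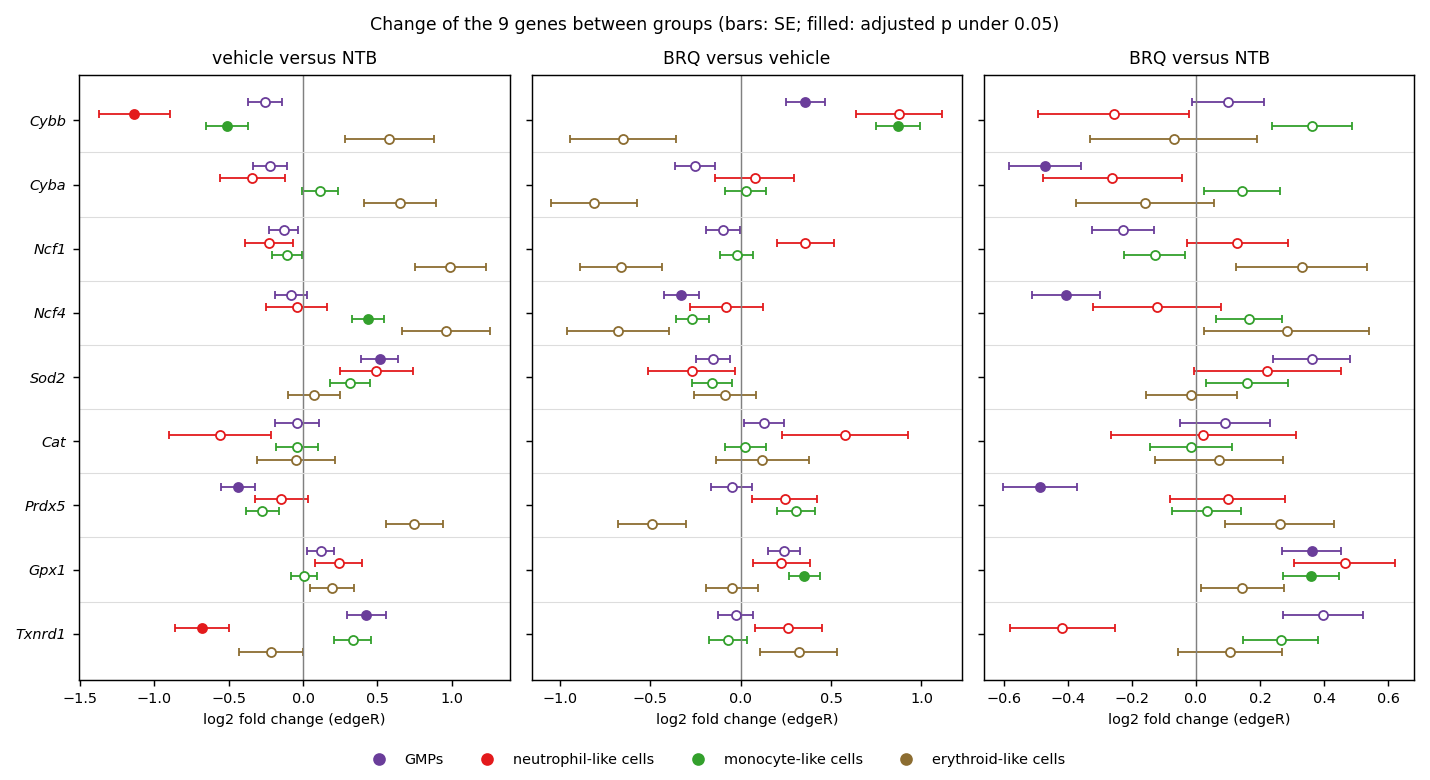
Log2 fold changes of the 9 genes (edgeR) in 4 cell classes for each comparison, where a point is the estimate, a bar its SE and a filled point an adjusted p under 0.05. In all 16 points are filled, and the Cybb points of BRQ against vehicle lie above 0 in GMPs (0.36), neutrophil-like (0.88) and monocyte-like cells (0.87) and below 0 in erythroid-like cells (-0.65), and only those of GMPs and monocyte-like cells are filled.

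The panels of the 3 comparisons share groups, so their values are given side by side and no overlap between them was counted. Over the 4 classes and 3 comparisons, 16 tests of the 9 genes were called and 42 had an unadjusted p under 0.05, beside 5.23 to 40% of all genes by comparison. Cat and Ncf1 were called in none of these tests.

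Whether a gene changed by a different amount in another class than in GMPs was tested with an interaction term (edgeR). For neutrophil-like cells, 2 of 9 genes passed in vehicle against NTB (Txnrd1 and Cybb, with 20.1% of all genes called) and 2 in BRQ against NTB (Txnrd1 and Prdx5, 8.32%), and none in BRQ against vehicle (1.38%), where 3 had an unadjusted p under 0.05, as 15% of all genes had. For monocyte-like cells, Ncf4 passed in vehicle against NTB (0.386%), Cybb and Prdx5 in BRQ against vehicle (1.78%), and Cyba, Ncf4 and Prdx5 in BRQ against NTB (1.68%). For erythroid-like cells, Ncf1, Cyba and Prdx5 passed in vehicle against NTB (1.83%) and Prdx5 in BRQ against NTB (0.649%), and none in BRQ against vehicle (0.0928%), where 5 had an unadjusted p under 0.05, as 7.68% of all genes had. The higher Cybb under BRQ was thus larger in monocyte-like cells than in GMPs by 0.49 on the log2 scale. With hashtags called by tag ratios, it was 0.36 (adjusted p = 0.939), and of the 10 values that passed for neutrophil-like and monocyte-like cells only that of Cybb in neutrophil-like cells, vehicle against NTB, passed (-0.95, adjusted p = 0.012).

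A list of 43 related genes, drawn from oxidase partners, other peroxidases, the thioredoxin and glutathione systems, NRF2 and its targets and enzymes that supply NADPH, was read beside the 9 genes. In Veh-GMPs against NTB-GMPs 13 of 35 tested genes were called, 9 higher and 4 lower, with a median log2 fold change of 0.08. The largest were Hmox1 (heme oxygenase, -1.76), Gclm (a subunit of the enzyme that starts glutathione synthesis, 0.97), Prdx1 (0.74), Hvcn1 (a proton channel that balances charge during the burst, -0.66) and Prdx2 (0.59). The summed macrophage markers were 272 to 309.6 CPM in NTB-GMPs and 161 to 174.5 CPM in Veh-GMPs. Vcam1, 1 of the 6 macrophage markers, was also a leading gene of the Elane- and Fcnb-led GMP cluster, so this sum is not RNA of macrophages alone. The part of macrophage RNA and of GMP cluster makeup in the Hmox1 difference was not tested.

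In BRQ-GMPs against Veh-GMPs 4 of 35 genes were called, Sod1 (cytosolic superoxide dismutase) higher at 0.59 and Prdx6 (-0.54), Mpo (myeloperoxidase, -0.52) and Pgd (an NADPH-supplying enzyme, -0.47) lower, with a median of -0.07. In BRQ-GMPs against NTB-GMPs 11 were called, 5 higher and 6 lower, led by Hmox1 (-1.68), Sod1 (0.92), Mpo (-0.86), Gclm (0.86) and Mgst1 (-0.62), with a median of 0.002. Mpo is also 1 of the 8 GMP markers. Their backgrounds are the shares given above for the same comparisons.

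In neutrophil-like cells 12 of 32 related genes were called in vehicle against NTB, 8 higher and 4 lower, with a median of 0.32. Of all genes 26.9% were called there, 15.4% higher and 11.5% lower. Txnip, an inhibitor of thioredoxin, came to 2.18, Hmox1 to 1.98, Hvcn1 to -1.58 and Gclm to 1.41. In BRQ against NTB 14 were called, 11 higher and 3 lower (median 0.43), among them Hmox1 (1.69), Gclm (1.56), Txnip (1.43) and Hvcn1 (-0.98). The share of all genes was 13.5%, with 10.6% higher and 2.94% lower. In BRQ against vehicle edgeR called none, beside 0.0381% of all genes, and DESeq2 called 1 of the 22 it tested. By edgeR 7 had an unadjusted p under 0.05, beside 12.3% of all genes (median 0.07). The unequal cluster makeup given above applies to these values as well.

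In monocyte-like cells 2 of 33 related genes were called in vehicle against NTB, Gclm (1.00) and Glrx5 (0.42), with a median of 0.04. This compares with 3.45% of all genes called. Idh1, which supplies NADPH in the cytosol, was higher in BRQ against vehicle (0.51) and Prdx6 lower (-0.30), with a median of 0.07. These 2 genes stood beside 5.42% of all genes called. Gclm (0.97), Idh1 (0.53), Sod1 (0.46) and Gpx4 (0.33) were higher in BRQ against NTB, with a median of 0.13, where 3.27% of all genes were called. In erythroid-like cells edgeR and DESeq2 called none of 34 genes in any comparison, where edgeR called at most 0.0619% of all genes. By edgeR 2, 3 and 6 had an unadjusted p under 0.05, beside 6.75%, 5.23% and 7.16% of all genes.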

How the data were processed

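The authors deposited UMI counts per gene or hashtag and cell barcode, 1 table per pool, not normalized, and per the submitters' processing notes made with Cell Ranger 6.0.0 on mm10 and analysed with Seurat.

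Barcodes with 500 to 7500 detected genes and at most 15% mitochondrial UMIs were kept (32762 of 39488). The study words these limits as transcripts, which was read here as genes. Hashtags were called per pool with HTODemux (Seurat 5.3.0, quantile 0.99), which called 10.93% of barcodes doublets and 40.97% negative, and only singlets were used. Scrublet (scanpy 1.11.5) marked 4.54%, left out only as an alternative. Clusters came from 1995 of 2000 variable genes (the 5 listed genes among them were dropped), 30 principal components, 20 neighbours and Leiden resolution 0.8 (leidenalg 0.10.2), without integration of the pools. Of 19 clusters, 4 stayed unnamed by fixed marker lists. The names were rebuilt here and may differ from those of the study. GMPs had Ms4a3 over 3, as ln(1 + its UMIs scaled to 10000 per cell), and were taken out of the other classes. The study words this limit as a scaled value, from SCTransform, so the natural-log scale used here is an assumption.

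Counts were summed per mouse with at least 10 cells and compared with edgeR 4.0.16 (TMM factors, genes kept by filterByExpr, two-sided quasi-likelihood test) in 1 fit per class over all groups, with Benjamini-Hochberg adjustment over all genes tested. The study tested cells, whereas mice are the replicates here, and 3 mice per group limit the precision. Differences of change between classes were tested with an interaction term and a term for each mouse. DESeq2 1.42.0, RLE factors, no filter on low counts, leaving out each mouse, tag ratios in place of HTODemux, limits read as UMIs, another class rule and equal cells per cluster were alternatives, and 3 more for the neutrophil-like cells were chosen after seeing the data, of which the 2 on single clusters give values and no test. The code was tested on simulated data. R 4.3.3 and Python 3.11.15 were used.

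By the labels, 1 pool holds 1 mouse of each group, so pools pair the mice. Deviations of the log2 values from their group means correlated across genes within a pool with a median r of 0.088 in GMPs, 0.053 in neutrophil-like, 0.076 in monocyte-like and 0.076 in erythroid-like cells, against -0.046, -0.04, -0.028 and -0.049 between pools.

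All 9 genes are named in each class, and of the 43 related genes at most 5 called ones per comparison by absolute log2 fold change. A related gene that this rule would name in neutrophil-like cells is not reported here. The genes, lists, tests and alternatives were chosen with earlier results of these data known. Promoters came from RefSeq on GRCm38.p6.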

Additional observations from a re-analysis of the deposited data

Results flagged for a closer look

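For 14 of 81 pairs of a gene and a comparison, the log2 fold change in another class differed from that in GMPs by an interaction term (edgeR, adjusted p under 0.05 over all genes). Each value below is the change in the other class minus the change in GMPs. The cells of the classes came from the same mice. With tag ratios, 9 of the 10 values for neutrophil-like and monocyte-like cells did not pass, and that of Cybb in neutrophil-like cells did (-0.95, adjusted p = 0.012). No cause of these differences was tested.

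In neutrophil-like cells against GMPs, Txnrd1 differed by -1.05 ± 0.23 (SE, adjusted p = 0.00264) and Cybb by -0.90 ± 0.22 (adjusted p = 0.00587) in vehicle against NTB, where 20.1% of all genes were called. In BRQ against NTB, with 8.32% of genes called, Txnrd1 differed by -0.72 ± 0.21 (adjusted p = 0.0336) and Prdx5 by 0.69 ± 0.17 (adjusted p = 0.0152). In vehicle against NTB, Txnrd1 was thus higher in GMPs and lower in neutrophil-like cells, whose cluster makeup differed between the groups. Within single neutrophil clusters, given without a test, Txnrd1 changed by -0.38 ± 0.64 (Il1b- and Cxcr2-led) and -0.25 ± 0.22 (Camp- and Ltf-led), with overlapping groups.

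In monocyte-like cells against GMPs, Ncf4 differed by 0.50 ± 0.12 (adjusted p = 0.0268) in vehicle against NTB, with 0.386% of genes called. In BRQ against vehicle, with 1.78% called, Cybb differed by 0.49 ± 0.10 (adjusted p = 0.000936) and Prdx5 by 0.33 ± 0.08 (adjusted p = 0.0082). In BRQ against NTB, with 1.68% called, Cyba differed by 0.60 ± 0.09 (adjusted p = 6.34e-06), Ncf4 by 0.55 ± 0.11 (adjusted p = 0.00137) and Prdx5 by 0.51 ± 0.08 (adjusted p = 1.18e-05). The lower Cyba, Ncf4 and Prdx5 of BRQ-GMPs (-0.47, -0.41 and -0.49) were therefore not seen in the monocyte-like cells of the same mice. There the changes were 0.14, 0.17 and 0.03, none called. With equal cells per cluster the GMP values were -0.03, -0.12 and -0.08. The part of GMP cluster makeup was otherwise not tested.

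In erythroid-like cells against GMPs, Ncf1 differed by 1.21 ± 0.25 (adjusted p = 0.0072), Cyba by 0.80 ± 0.22 (adjusted p = 0.049) and Prdx5 by 1.13 ± 0.18 (adjusted p = 0.000882) in vehicle against NTB, with 1.83% of genes called. Prdx5 differed by 0.70 ± 0.16 (adjusted p = 0.0252) in BRQ against NTB, with 0.649% called. These cells also held neutrophil markers at 5737 to 25980 CPM in the mice compared for vehicle against NTB.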

How the results depend on the processing

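Of the 16 called values, all 16 stayed called with RLE factors, without a filter on low counts and with the replicate block (pool), which ended no call, 13 by DESeq2, 15 without Scrublet doublets, 13 under the other class rule and 3 of 15 with equal cells per cluster. Leaving out 1 mouse of a compared group kept 54 of 96 and lost 42. Tag ratios left 4907 cells and kept 4 of 26 values, interaction terms included. In pools 1, 2 and 3 they left 620, 157 and 210 of 2571, 2321 and 2343 cells in BRQ-treated mice. NTB mice kept 363, 588 and 966 of 554, 1307 and 2447 cells, and vehicle-treated mice 1727, 115 and 161 of 2780, 382 and 1261. The loss was thus unequal between groups. Limits read as UMIs kept 2 and lost 9. Tag ratios and equal cells gave no erythroid-like value, and limits as UMIs no monocyte-like or erythroid-like value, for want of cells. The cause of each change was not tested. The smallest sum tested held 270459 UMIs as reported, 48287 with tag ratios, 45614 with limits as UMIs and 72290 with equal cells.

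The counts of members called below stand without the share of all genes called in each setting. That share moved between settings as well, so the counts describe the settings and are no result about the members. In GMPs, members called went from 3 in vehicle against NTB to 5 with the pairing by pool as a block, 0 with limits as UMIs and 0 with equal cells. BRQ against vehicle went from 2 to 4 with the block, 0 with tag ratios, 0 with UMIs and 1 under the class rule. BRQ against NTB went from 4 to 7 with the block, 1 with tag ratios, 0 with UMIs and 2 with equal cells. Leaving out 1 mouse gave 1 to 3, 0 to 2 and 0 to 5.

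In neutrophil-like cells, vehicle against NTB went from 2 to 1 by DESeq2, 0 with tag ratios, 4 with UMIs, 0 with equal cells, and 1 with the Fcnb cluster added, and in the Ltf cluster alone, which was not tested, the Cybb value reversed to 0.091. BRQ against vehicle went from 0 to 1 without a filter, 1 with the block and 2 with UMIs. BRQ against NTB went from 0 to 1 by DESeq2, 1 with the block, 3 with UMIs and 1 with the Fcnb cluster. Leaving out 1 mouse gave 1 to 3, 0 to 1 and 0 to 1.

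In monocyte-like cells, vehicle against NTB went from 2 to 3 with the block, 0 with tag ratios, 1 without doublets and 0 with equal cells. BRQ against vehicle went from 2 to 3 with the block, 0 with tag ratios and 1 with equal cells. BRQ against NTB went from 1 to 2 without a filter, 2 with the block, 0 with tag ratios and 0 with equal cells. Leaving out 1 mouse gave 0 to 2, 1 to 3 and 0 to 2. In erythroid-like cells, vehicle against NTB went from 0 to 4 without a filter, 1 under the class rule and 0 to 4 without 1 mouse, and BRQ against vehicle from 0 to 1 without a filter.

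With tag ratios, members called by the interaction term numbered 1 in vehicle against NTB and 0 in BRQ against NTB for neutrophil-like cells, and 0 in each comparison for monocyte-like cells.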
